A study of Homo sapiens with 12 samples.

Results

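The genes described here encode the enzymes of glycolysis from glucose-6-phosphate isomerase to lactate dehydrogenase A, with several isoforms of the same step. They are GPI, PFKP, PFKL, PFKM, ALDOA, ALDOC, PGK1, ENO1, ENO2 and LDHA. They were taken by name from an array table of HepG2 spheroids, where a gene is represented by its brightest probe set with exactly 1 gene symbol. All 10 genes were found, each with 1 such probe set, among 18404 genes. HepG2 is a human hepatocellular carcinoma cell line, and per the labels it was grown as tumour spheroids in stirred flasks for 10 days. The 12 arrays form 3 groups of 4: wild type cells, cells with a knockdown of HIF-1α (gene HIF1A) and cells with a knockdown of HIF-2α (gene EPAS1). All groups share the cell line, the medium and the age, and no other agent or treatment is named for any of them. The sources used here do not give the method of knockdown, whether a control construct was present in wild type, whether a knockdown line is 1 clone, or which region of the spheroid the RNA came from. Per the labels the RNA was amplified by a kit whose use is stated for 250 microdissected cells, then labelled with biotin and hybridised.

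Glycolysis turns glucose into pyruvate in the cytosol. Isomerase (GPI) converts glucose 6-phosphate to fructose 6-phosphate, phosphofructokinase commits the sugar to breakdown, aldolase splits it into triose phosphates, phosphoglycerate kinase (PGK1) makes ATP, enolase makes phosphoenolpyruvate, and lactate dehydrogenase A turns pyruvate into lactate while it regenerates NAD+. Flux through this route is raised in hypoxic cells, and several of these genes are textbook targets of the hypoxia-inducible factors, which bind the DNA cores ACGTG and GCGTG (the hypoxia response element). Phosphofructokinase has a platelet (PFKP), a liver (PFKL) and a muscle (PFKM) isoform, which assemble into tetramers. Aldolase A (ALDOA) is the widespread isoform and aldolase C (ALDOC) is best known from brain. Enolase 1 (ENO1, alpha enolase) is the widespread and enolase 2 (ENO2, gamma enolase) the neuronal isoform.

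Promoter windows are printed to show where those cores lie in the genes that passed the test against wild type (ENO1, GPI, ALDOA) and in a pair that did not (PGK1, LDHA). Each window holds the 250 bases before and 50 bases after an annotated transcription start, from RefSeq on GRCh38.p14, 5′ to 3′ on the gene's own strand. Capitals mark ACGTG or GCGTG read on either strand, so that CACGT and CACGC are the same cores on the other strand and CACGTG holds a core on both.
ENO1, chr1:8878637-8878936, minus strand: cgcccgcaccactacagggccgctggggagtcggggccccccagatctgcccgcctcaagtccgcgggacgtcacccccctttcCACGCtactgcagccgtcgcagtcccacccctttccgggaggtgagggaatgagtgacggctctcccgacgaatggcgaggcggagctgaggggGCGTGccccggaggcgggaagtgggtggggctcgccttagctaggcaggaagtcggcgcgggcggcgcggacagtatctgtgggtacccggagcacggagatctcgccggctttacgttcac
GPI, chr19:34364742-34365041, plus strand: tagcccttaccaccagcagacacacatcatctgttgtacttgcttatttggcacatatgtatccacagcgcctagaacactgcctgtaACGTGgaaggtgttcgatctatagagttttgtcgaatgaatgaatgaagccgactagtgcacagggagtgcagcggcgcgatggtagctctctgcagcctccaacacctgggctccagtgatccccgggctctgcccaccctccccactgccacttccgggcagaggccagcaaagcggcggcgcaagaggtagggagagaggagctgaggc
ALDOA, chr16:30064029-30064328, plus strand: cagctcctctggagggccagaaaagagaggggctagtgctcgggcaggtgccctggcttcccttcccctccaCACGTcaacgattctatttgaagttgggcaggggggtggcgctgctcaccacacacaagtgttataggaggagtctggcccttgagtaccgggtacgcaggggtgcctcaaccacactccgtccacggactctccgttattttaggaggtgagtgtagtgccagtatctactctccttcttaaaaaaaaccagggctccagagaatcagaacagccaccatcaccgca
PGK1, chrX:78103998-78104297, plus strand: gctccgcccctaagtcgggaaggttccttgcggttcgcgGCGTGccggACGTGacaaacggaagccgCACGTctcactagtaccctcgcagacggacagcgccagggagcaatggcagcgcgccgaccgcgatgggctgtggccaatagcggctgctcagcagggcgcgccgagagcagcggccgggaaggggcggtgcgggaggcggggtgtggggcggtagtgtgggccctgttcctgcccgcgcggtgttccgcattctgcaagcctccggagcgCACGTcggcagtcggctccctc
LDHA, chr11:18394313-18394612, plus strand: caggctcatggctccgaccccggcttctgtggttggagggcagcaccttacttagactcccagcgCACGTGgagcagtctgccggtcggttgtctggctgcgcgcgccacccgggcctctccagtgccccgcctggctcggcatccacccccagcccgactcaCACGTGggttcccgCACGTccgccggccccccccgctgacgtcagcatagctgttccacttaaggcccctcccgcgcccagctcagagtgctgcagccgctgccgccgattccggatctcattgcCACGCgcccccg
A match is a description of the letters and not a binding site. Counting overlapping matches once, the ENO1 window held 2 cores, the GPI window 1, the ALDOA window 1, the PGK1 window 4 and the LDHA window 4. ALDOA has 3 windows with 1 core each, of which the most upstream is printed, and of the LDHA windows the one with 4 cores is printed. All 10 genes had at least 1 annotated window, with 22 windows in all, and 15 of the 22 (68.2%) held a core, against 48.4% of all 35116 windows of 300 bases. The share of all genes with a core in any window was not computed. Windows of 1 gene can overlap, and 1 PFKM core was counted in 2 of them. The 22 windows are thus not independent, and the difference between these shares was not tested. The LDHA window held CACGTG starting at positions -185 and -87 from the start site, the ALDOC window held it at -240, and an ALDOA window that is not printed (chr16:30064247-30064546) held it at -112. Over all windows 7.26% held this palindrome. The other genes did not pass against wild type either. Their window with the most cores held 1 in PFKL, PFKM and ENO2, 3 in PFKP and 4 in ALDOC. The printed pair therefore does not stand for all genes that did not pass.

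The labels were first checked on the targeted transcripts. HIF1A signals of 10.62 to 10.79 in wild type stood against 9.25 to 9.64 after its own knockdown, and EPAS1 lay between 10.83 and 11.26 in wild type and between 9.67 and 10.02 in HIF-2α knockdown. Hepatocyte markers, 9 of 10 listed genes measured, had array means between 11.84 and 12.81, and ALB, which encodes albumin, lay between 13.10 and 14.27. The leukocyte markers PTPRC, CD3E and CSF1R lay between 6.41 and 7.10 on all arrays, ITGAM between 6.78 and 7.07 and CD14 between 7.04 and 7.63. Of the same list CD68 lay between 9.74 and 10.35 and LYZ between 12.79 and 13.73. Values are log2 signals with n = 4 arrays per group. Differences were tested with limma over all 18404 genes, and a gene was called changed at a Benjamini-Hochberg adjusted p below 0.05. The signal of a probe set depends on its probes, so levels are compared between groups and not between genes. Because these are bulk samples, fewer cells with a transcript and less of it per cell cannot be told apart.

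**Figure D1:**
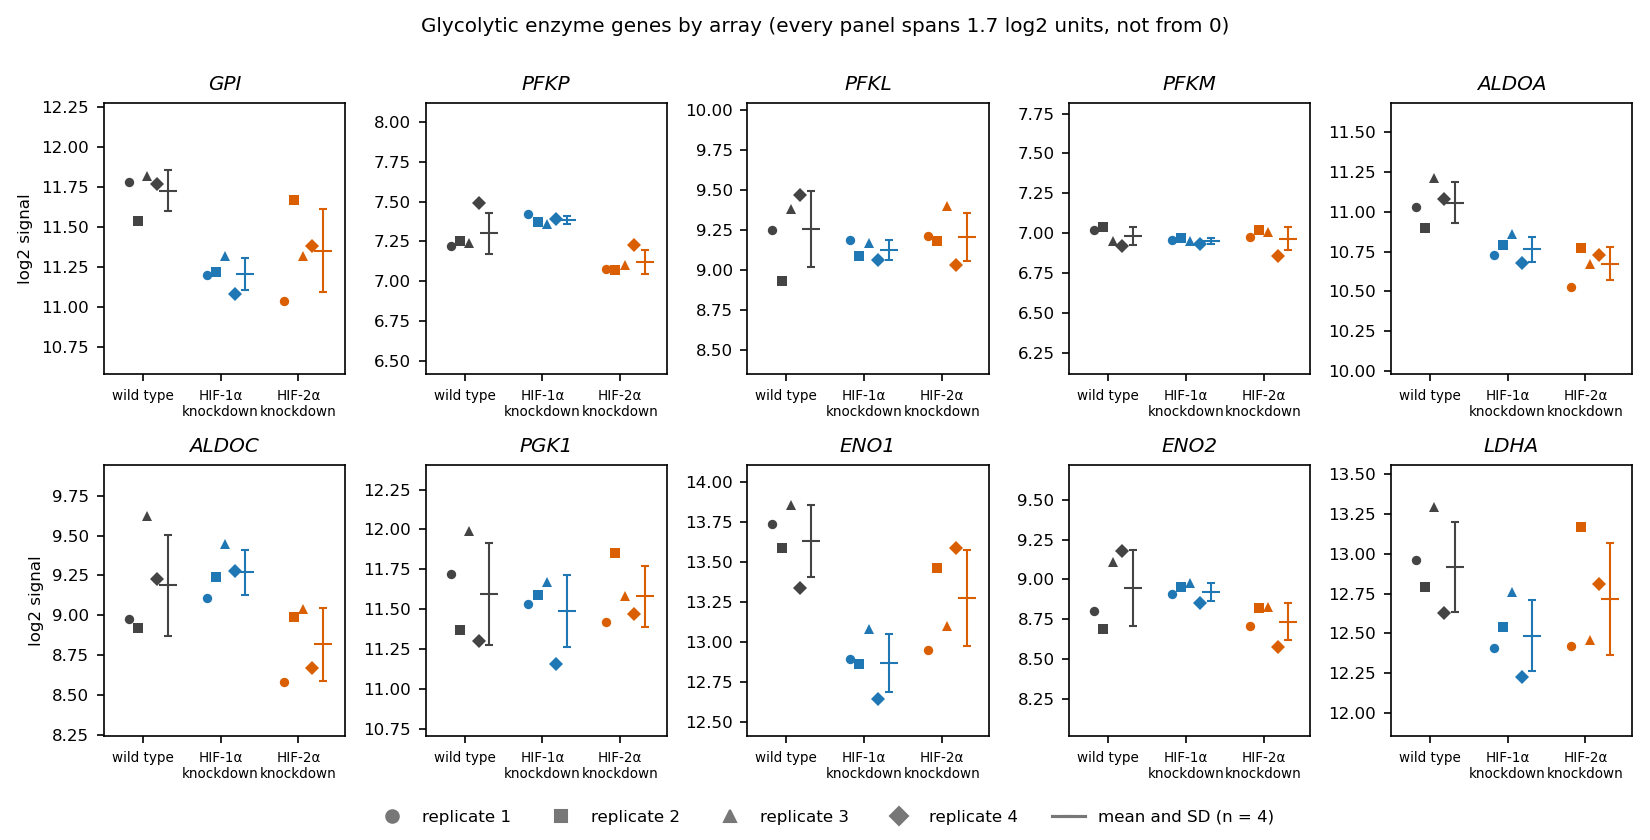
Log2 signal of each of the 10 genes on each of the 12 arrays, with the mean and SD of the 4 arrays of a group; every panel spans the same range of log2 units. ENO1 and GPI in HIF-1α knockdown (12.64 to 13.08 and 11.08 to 11.32) lie below all wild type arrays, as does ALDOA in both knockdowns.

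Setting the HIF-1α knockdown arrays against wild type asks which glycolytic transcripts differ when HIF1A is reduced. ENO1 and GPI fell, and the other 8 genes did not pass, while 0.147% of all genes were called lower and 0.815% higher. ENO1 had log2 signals of 13.74, 13.59, 13.86 and 13.34 in wild type replicates 1 to 4 and of 12.89, 12.86, 13.08 and 12.64 in HIF-1α knockdown replicates 1 to 4. The groups did not overlap, and the mean moved from 13.63 ± 0.22 (SD, n = 4) to 12.87 ± 0.18. This is a log2 difference of -0.77 (SE 0.14, 95% interval -1.08 to -0.45, limma adjusted p = 0.0236), which leaves 58.8% of the wild type signal. GPI had log2 signals of 11.78, 11.54, 11.82 and 11.77 in wild type and of 11.20, 11.22, 11.32 and 11.08 in HIF-1α knockdown. Here too every knockdown array lay below every wild type array, at 69.5% of the wild type signal (log2 difference -0.52, SE 0.11, 95% interval -0.76 to -0.29, limma adjusted p = 0.0414).

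Aldolase A showed the third separation of the groups without passing the test. Its log2 signals were 11.03, 10.90, 11.21 and 11.08 in wild type and 10.73, 10.79, 10.86 and 10.68 in HIF-1α knockdown. The highest knockdown array lay below the lowest wild type array, and the log2 difference was -0.29 (SE 0.07, 95% interval -0.45 to -0.13, limma adjusted p = 0.0848). Over all genes, 2.11% had every HIF-1α knockdown array below every wild type array. LDHA had log2 signals of 12.96, 12.79, 13.29 and 12.63 in wild type and of 12.41, 12.54, 12.76 and 12.23 in HIF-1α knockdown. Its groups overlapped through wild type replicate 4 and knockdown replicate 3, and the difference of -0.43 (SE 0.17, 95% interval -0.80 to -0.06, limma adjusted p = 0.283) was not called.

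PGK1, the ATP-making kinase, spanned 11.30 to 11.99 on wild type arrays and 11.16 to 11.67 after HIF-1α knockdown. Its log2 difference was -0.11 with a 95% interval of -0.43 to 0.22, which holds both 0 and the ALDOA value (limma adjusted p = 0.827). The phosphofructokinase genes did not pass in either direction. PFKL differed by -0.13 (SE 0.10), PFKM by -0.03 (SE 0.05) and PFKP by 0.09 (SE 0.06) on the log2 scale, with limma adjusted p between 0.662 and 0.875. The intervals of ALDOC, -0.23 to 0.39, and of ENO2, -0.23 to 0.19, lay on both sides of 0. In all, 8 of the 10 differences were negative, with a median of -0.12, and 4 had an unadjusted p below 0.05, against 13.2% of all genes. Among all 18404 genes 48.0% were negative and the median was 0.0049.

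**Figure D2:**
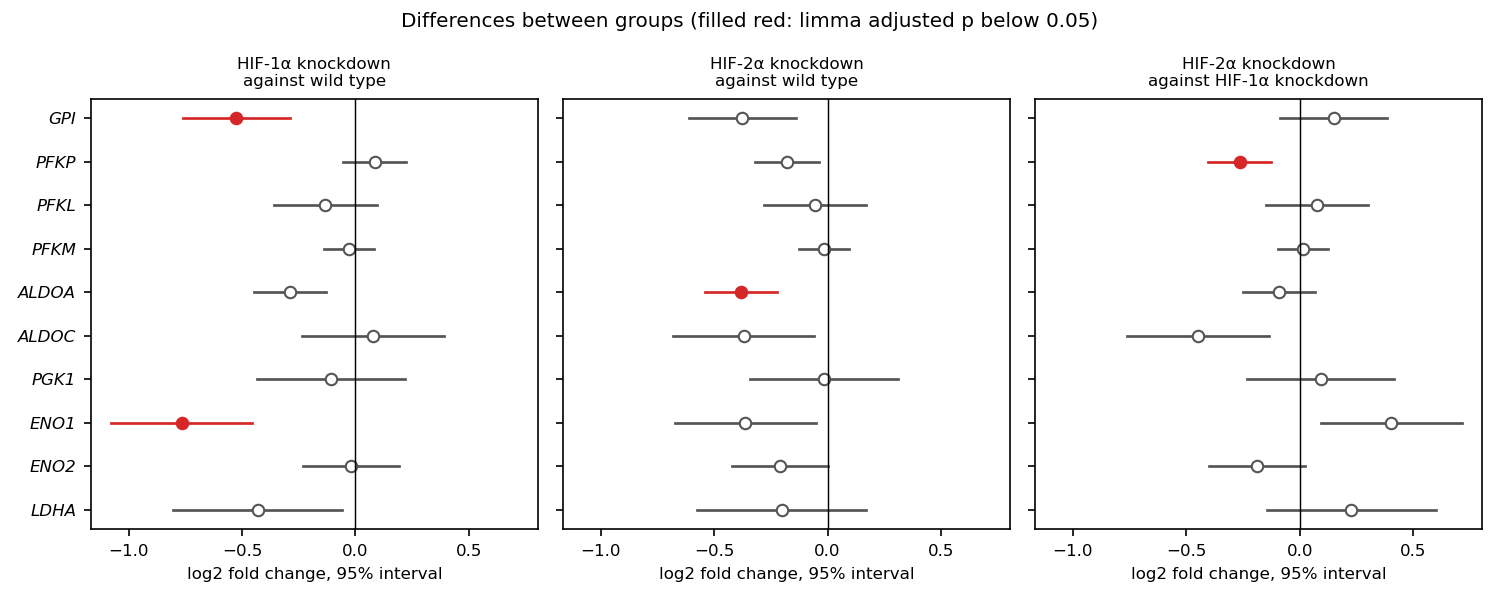
Log2 fold change of each gene in the 3 comparisons, with limma's 95% interval as a line; a filled red point marks an adjusted p below 0.05 over 18404 genes. ENO1 and GPI are filled in HIF-1α knockdown, ALDOA in HIF-2α knockdown, and PFKP in the comparison of the knockdowns.

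Most of the brightest genes, and not only ENO1, were lower in HIF-1α knockdown. Of the 221 genes with a mean log2 signal of 12 or more over the 12 arrays, a group that includes ENO1 and LDHA, 195 (88.2%) were negative in HIF-1α knockdown and their median was -0.25. Of these 221 genes 2 had a more negative difference than ENO1 and 51 a more negative one than LDHA. GPI, ALDOA and PGK1 belong to the 1707 genes between 10 and 12, which had a median of 0.05. The array means of 57 ribosomal protein genes spanned 11.74 to 12.27 for wild type, 11.47 to 11.78 for HIF-1α knockdown and 11.58 to 12.10 for HIF-2α knockdown. The mean of the hepatocyte markers was also lower in HIF-1α knockdown, at 11.84 to 12.10 against 12.38 to 12.81 in wild type, and all 9 measured markers had negative differences. The part of these shifts in the results for ENO1 and LDHA was not tested.

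Quantile normalization, which gives every array the same distribution, reduced the ENO1 difference to -0.29 (SE 0.06, limma adjusted p = 0.0308). ENO1 then lay between 13.38 and 13.46 in wild type and between 12.98 and 13.25 in HIF-1α knockdown, still without overlap. LDHA moved to -0.13 (SE 0.08, limma adjusted p = 0.518). GPI stayed at -0.49 (SE 0.07, limma adjusted p = 0.00856), and ALDOA, at -0.32 (SE 0.05, limma adjusted p = 0.00664), was then called as well. With each array centred on its median neither ENO1 (-0.79, limma adjusted p = 0.0673) nor GPI (-0.54, limma adjusted p = 0.109) passed. A raised floor marks 3 arrays, HIF-2α knockdown replicate 4 and replicates 1 and 2 of wild type, with the lowest 0.1 percent of values ending at 6.33 to 6.35 against 6.11 to 6.23 elsewhere. Without these 3 arrays the differences were -0.73 for ENO1 and -0.59 for GPI and neither passed in the smaller fit (limma adjusted p = 0.194 and 0.188). Among fits that left out 1 array, ENO1 was lost without wild type replicates 1 or 2 or HIF-1α knockdown replicates 2 or 4 (limma adjusted p from 0.0620 to 0.0917), at differences between -0.78 and -0.69. GPI was lost without wild type replicates 1 or 4, any of the 4 HIF-1α knockdown arrays, or HIF-2α knockdown replicates 3 or 4 (limma adjusted p from 0.0517 to 0.126), at differences between -0.56 and -0.48.

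**Figure D3:**
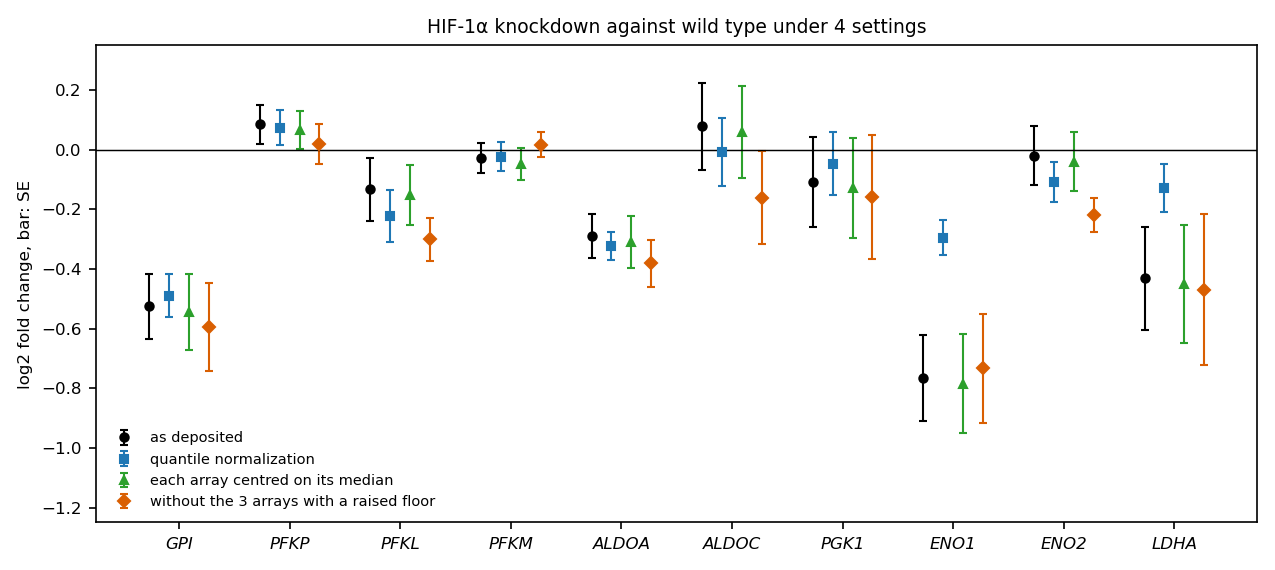
Log2 fold change of the 10 genes in HIF-1α knockdown against wild type, with bars for the SE, from the values as deposited, after quantile normalization, after centring each array on its median, and without the 3 arrays with a raised floor. ENO1 moves from -0.77 to -0.29 and LDHA from -0.43 to -0.13 under quantile normalization, while GPI keeps a value near -0.5.

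The same question was asked of EPAS1 with the HIF-2α knockdown arrays, which are set against the same wild type arrays as before. ALDOA fell and the other 9 genes did not pass, while 0.31% of all genes were called lower and 0.478% higher. Its log2 signals in HIF-2α knockdown were 10.53, 10.77, 10.67 and 10.73, all below the lowest wild type value of 10.90. The log2 difference was -0.38 (SE 0.07, 95% interval -0.54 to -0.22, limma adjusted p = 0.0305), which leaves 76.8% of the wild type signal. Over all genes 1.91% had every HIF-2α knockdown array below every wild type array. After quantile normalization the ALDOA difference was -0.44 (limma adjusted p = 0.000618), and after centring it was -0.38 (limma adjusted p = 0.0950). It was -0.49 without the raised-floor arrays (limma adjusted p = 0.0752). The call was lost in 7 of the 12 fits that left out 1 array: wild type replicates 1, 3 or 4, HIF-1α knockdown replicate 2, or HIF-2α knockdown replicates 1, 3 or 4, at differences from -0.40 to -0.33 (limma adjusted p from 0.0501 to 0.0932).

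GPI and ENO1 were lower on average in HIF-2α knockdown, with wide scatter among the arrays. GPI had log2 signals of 11.04, 11.67, 11.32 and 11.38, so that replicate 2 lay within the wild type range and the other 3 arrays below it (log2 difference -0.38, SE 0.11, limma adjusted p = 0.145). HIF-2α knockdown replicate 2 is the array that stands apart on the first principal component of all genes, at 25.3 against -11.8 to 3.26 for the others. Without it the GPI difference was -0.48 and passed (limma adjusted p = 0.0390). ENO1 had log2 signals of 12.95, 13.46, 13.10 and 13.59, with replicates 2 and 4 within the wild type range (log2 difference -0.36, SE 0.14, 95% interval -0.67 to -0.05, limma adjusted p = 0.318). LDHA, at 12.42, 13.17, 12.46 and 12.81, showed the same pair of high arrays (log2 difference -0.20, SE 0.17, limma adjusted p = 0.719). Of the 221 genes with a mean log2 signal of 12 or more, 71.9% were negative against wild type, with a median of -0.09.

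ALDOC had log2 signals of 8.98, 8.92, 9.62 and 9.23 in wild type and of 8.58, 8.99, 9.04 and 8.67 in HIF-2α knockdown, a difference of -0.37 (SE 0.15, 95% interval -0.68 to -0.06, limma adjusted p = 0.310). The groups overlapped, and wild type replicate 3 lay highest. ENO2 differed by -0.21 (95% interval -0.42 to 0.0029) and PFKP by -0.18 (95% interval -0.32 to -0.04), neither of them called. The remaining differences were close to 0, at -0.06 for PFKL, -0.01 for PFKM and -0.02 for PGK1. An unadjusted p below 0.05 was reached by 5 of the 10, against 12% of all genes. All 10 differences were negative, with a median of -0.21, against 55.4% negative and a median of -0.01 among all genes. Without HIF-2α knockdown replicate 4, 7 were negative. PFKL, PFKM and PGK1 changed sign in 3, 3 and 4 of the other settings.

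The knockdowns were then compared with each other, which is the test of a difference between their effects. PFKP, the platelet phosphofructokinase, was lower in HIF-2α knockdown than in HIF-1α knockdown. HIF-1α knockdown arrays gave log2 signals of 7.42, 7.37, 7.36 and 7.39, HIF-2α knockdown arrays gave 7.08, 7.07, 7.10 and 7.23, and wild type arrays gave 7.22, 7.25, 7.24 and 7.49. The knockdown groups did not overlap with each other, and each overlapped with wild type. The difference between the knockdowns was -0.26 (SE 0.06, 95% interval -0.40 to -0.13, limma adjusted p = 0.0463). These signals lie near the array medians of 7.29 to 7.41, where no detection call tells a weak signal from none. Over all genes 1.8% were called lower in this comparison, 0.967% were called higher and 5.35% had every HIF-2α knockdown array below every HIF-1α knockdown array. The PFKP difference ran from -0.30 to -0.24 in the other settings and was called in 10 of 21, which count the fit without HIF-2α knockdown replicate 2 in 2 places. It was not called with centred arrays (limma adjusted p = 0.0784). Of the fits that left out 1 array it was called without wild type replicates 3 or 4 or HIF-2α knockdown replicate 4, and not called without any of the other 9 arrays (limma adjusted p from 0.0508 to 0.119).

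ALDOC separated the knockdowns as well, at 9.11, 9.24, 9.45 and 9.28 in HIF-1α knockdown, all above the HIF-2α knockdown maximum of 9.04, and was not called (log2 difference -0.45, SE 0.15, 95% interval -0.76 to -0.14, limma adjusted p = 0.143). ENO2 was the third gene without overlap, at 8.85 to 8.98 in HIF-1α knockdown and 8.58 to 8.83 in HIF-2α knockdown (log2 difference -0.19, SE 0.10, limma adjusted p = 0.455). ENO1 lay in the other direction, 0.40 higher in HIF-2α knockdown (SE 0.14, 95% interval 0.09 to 0.71, limma adjusted p = 0.201), and 0.08 higher after quantile normalization (limma adjusted p = 0.547). The 221 genes with a mean log2 signal of 12 or more had a median of 0.18 in this comparison, and 15.8% were negative. GPI and ALDOA, each called in 1 knockdown against wild type and not in the other, differed between the knockdowns by 0.15 (95% interval -0.09 to 0.39, limma adjusted p = 0.676) and -0.09 (95% interval -0.25 to 0.07, limma adjusted p = 0.720), so no difference between the knockdowns was shown for either. The 10 differences had a median of 0.05, and 4 were negative, against a median of -0.01 over all genes. An unadjusted p below 0.05 was reached by 3 of the 10, against 13.6% of all genes.

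Isoform use was examined as the log2 ratio of isoforms of 1 step within each array. A difference of that ratio between groups shows unequal change and does not show which isoform makes more transcript. For 5 pairs and 3 comparisons, 15 two-sided exact permutation tests of 4 against 4 arrays were made, whose smallest possible p is 0.0286. No test passed after adjustment over the 15 (smallest adjusted p = 0.107), and 4 reached the smallest p. At least 9 of the 15 would have had to reach it for any to pass, so the adjusted values say little either way. The ENO1 to ENO2 log2 ratio was 4.94, 4.90, 4.75 and 4.17 in wild type and 3.97, 3.91, 4.10 and 3.79 in HIF-1α knockdown. The groups did not overlap, with a difference of -0.75 on the log2 scale (exact permutation p = 0.0286, adjusted p = 0.107). In HIF-2α knockdown the ratio was 4.24, 4.63, 4.27 and 5, which overlapped with wild type (difference -0.15, exact permutation p = 0.6) and lay above HIF-1α knockdown by 0.59 (exact permutation p = 0.0286, adjusted p = 0.107). After quantile normalization the enolase difference in HIF-1α knockdown was -0.19, the smallest size among 17 other settings.

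**Figure D4:**
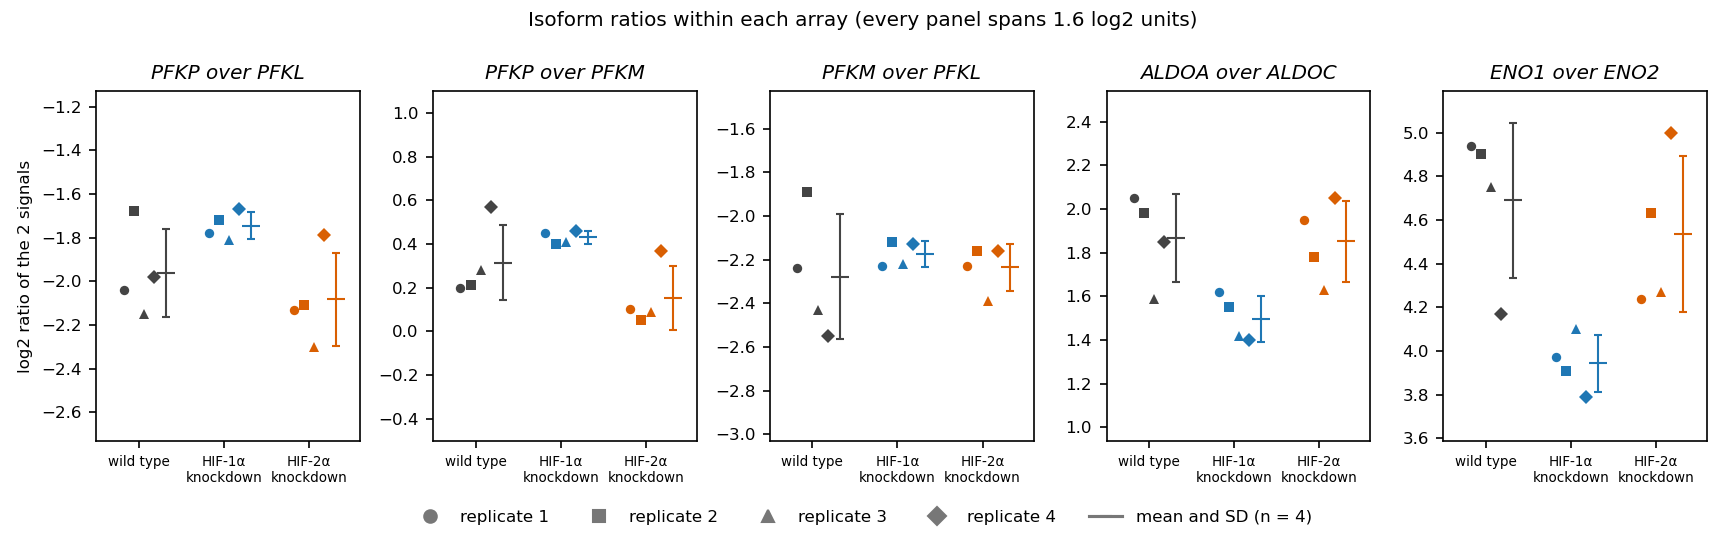
Log2 ratio of the signals of 5 isoform pairs within each of the 12 arrays, with the mean and SD of the 4 arrays of a group. The ENO1 to ENO2 ratio is lowest in HIF-1α knockdown (3.79 to 4.10), as is the ALDOA to ALDOC ratio (1.40 to 1.62).

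The ALDOA to ALDOC log2 ratio was 1.62, 1.55, 1.42 and 1.40 in HIF-1α knockdown and 1.95, 1.78, 1.63 and 2.05 in HIF-2α knockdown. These ranges did not overlap (difference 0.36, exact permutation p = 0.0286, adjusted p = 0.107). Wild type, at 2.05, 1.98, 1.59 and 1.85, overlapped with both. Against wild type the ratio differed by -0.37 in HIF-1α knockdown (exact permutation p = 0.0571) and by -0.01 in HIF-2α knockdown, where ALDOA and ALDOC had nearly the same log2 difference. For phosphofructokinase the PFKP to PFKM log2 ratio was 0.40 to 0.46 in HIF-1α knockdown and 0.05 to 0.37 in HIF-2α knockdown, again without overlap (difference -0.28, exact permutation p = 0.0286, adjusted p = 0.107). The PFKP to PFKL ratio differed by -0.34 between the knockdowns (exact permutation p = 0.0571), and the PFKM to PFKL ratio by -0.06 (exact permutation p = 0.4).

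Across the 12 arrays, the 5 genes whose log2 signals were most like those of ENO1, by Pearson's r among all genes, were TF, which encodes transferrin, GAPDH, the glycolytic dehydrogenase, the ribosomal protein genes RPL8 and RPL3, and SSR2, a subunit of the translocon-associated complex. Their r ran from 0.964 to 0.988 and Spearman's rho from 0.951 to 0.965, and r stayed between 0.940 and 0.983 without the 2 arrays farthest from the median of ENO1. No p is given, since these genes were picked for the highest r. After the group means were removed r still lay between 0.947 and 0.981, so the likeness was also present among arrays of 1 group. Over the 12 arrays LDHA (r = 0.875) and GPI (r = 0.867) were the closest to ENO1 among the other 9 genes, and ENO2 (r = -0.04) and ALDOC (r = -0.0077) had no likeness to it. With the group means removed, r with ENO1 was 0.877 for LDHA, 0.699 for PGK1, 0.668 for ALDOA and 0.660 for GPI. Quantile normalization moved the difference in HIF-1α knockdown from -0.77 to -0.29 for ENO1 and from -0.56 (limma adjusted p = 0.0848) to 0.05 (limma adjusted p = 0.733) for GAPDH, the only glycolytic gene of the 5.

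**Figure D5:**
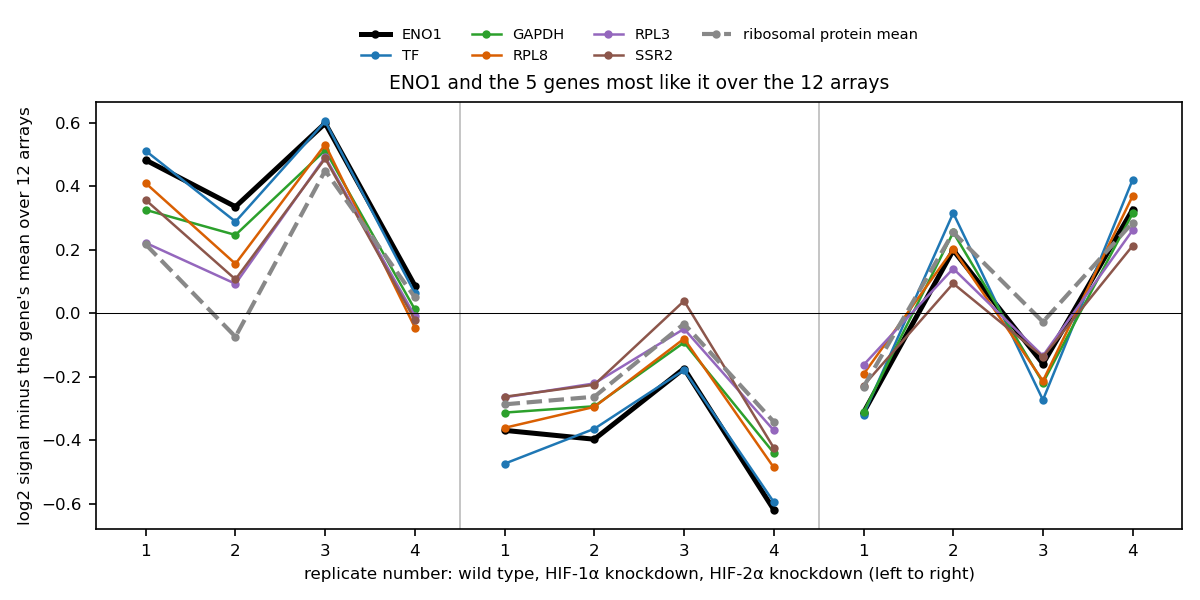
Log2 signal minus its own mean over the 12 arrays for ENO1, the 5 genes most like it and the mean of 57 ribosomal protein genes; lines join the arrays of a group only to guide the eye. ENO1 runs with TF and GAPDH in all groups, lowest in HIF-1α knockdown replicate 4 (-0.62) and highest in wild type replicate 3 (0.60).

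Other steps of the pathway were described from a list of 35 genes around these 10, of which 29 were measured. In HIF-1α knockdown 2 of the 29 fell, against 0.147% of all genes called lower, and the other 27 passed in neither direction (median over all 29, -0.02). These were SLC2A3, a glucose transporter, at 11.51 to 12.04 against 12.22 to 12.70 in wild type (log2 difference -0.65, SE 0.14, limma adjusted p = 0.0470), and HK2, the hexokinase that makes glucose 6-phosphate, at 9.24 to 9.50 against 9.65 to 10.01 (-0.48, SE 0.08, limma adjusted p = 0.0171). In HIF-2α knockdown 3 of the 29 fell, against 0.31% of all genes called lower, and the other 26 passed in neither direction (median over all 29, -0.05). Besides SLC2A3 (11.29 to 11.84, log2 difference -0.90, limma adjusted p = 0.0102) and HK2 (9.26 to 9.49, log2 difference -0.46, limma adjusted p = 0.0235) this was SLC2A1, another glucose transporter, at 12.01 to 12.19 against 12.40 to 13.03 in wild type (-0.60, SE 0.11, limma adjusted p = 0.0214). With median-centred arrays SLC2A3 in HIF-1α knockdown (limma adjusted p = 0.117) and SLC2A1 in HIF-2α knockdown (limma adjusted p = 0.0620) lost their calls, and without the raised-floor arrays none of the SLC2A1, SLC2A3 and HK2 calls passed (limma adjusted p from 0.0597 to 0.217). In the comparison of the knockdowns none of the 29 passed in limma as deposited, while 1.8% of all genes were called lower and 0.967% higher. SLC2A1 was lower in HIF-2α knockdown by a log2 value of -0.38 (limma adjusted p = 0.0844), and passed after quantile normalization (-0.60, limma adjusted p = 0.000175), with array weights (-0.40, limma adjusted p = 0.00941) and with only the groups compared in the fit (limma adjusted p = 0.0200). It did not pass with centred arrays (limma adjusted p = 0.190) or without the raised-floor arrays (limma adjusted p = 0.148). Nor did it pass with the intensity trend (limma adjusted p = 0.157) or the replicate block (limma adjusted p = 0.0637). SLC2A3 also passed between the knockdowns after quantile normalization (-0.39, limma adjusted p = 0.0104). An unadjusted p below 0.05 was reached by 10 of the 29 in HIF-1α knockdown (13.2% of all genes), by 7 in HIF-2α knockdown (12% of all genes) and by 4 between the knockdowns (13.6% of all genes). Of the further isoforms of the same steps, ENO3, the muscle enolase, was at 7.54 to 7.78 in wild type and at 7.63 to 7.95 in the knockdowns (limma adjusted p = 0.261 and 0.293 against wild type). LDHB, the lactate dehydrogenase subunit of heart muscle, lay between 6.45 and 6.74 on all arrays, and PGK2, the testis kinase, between 6.52 and 6.81, both near the floor of the arrays.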

How the data were processed

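RNA from 12 samples of HepG2 spheroids was measured on Affymetrix arrays. The values are the authors' deposited log2 values, 32321 probe sets by 12 arrays; the log base was inferred from their range of 5.93 to 15.05, and the sources used here do not give the background correction, summarization or normalization. Gene names came from the platform annotation table, and symbols were updated by Entrez identifier from RefSeq (GRCh38.p14, 19128 of 19158 matched; 4 matched by symbol and 26 were kept). Probe sets with several symbols (1388) or none (11775) were left out. The brightest probe set per gene left 18404 genes, with no filter on level. limma 3.58.1 in R 4.3.3 fitted 1 mean per group over all 12 arrays (lmFit, eBayes), with Benjamini-Hochberg adjustment over all genes; the script was tested on simulated data. SE is limma's moderated SE. Groups follow the labels, and the series' text gives 4 different spheroid experiments per genotype; the p-values rest on the spread among the arrays of a group. The genes named are the 10 members, HIF1A, EPAS1, list genes that passed, other isoforms of the same steps, and the 5 genes most correlated with ENO1. Members and lists were chosen with earlier results of these data known. The number of arrays limits the precision, and near-identical pseudogene copies could share probes with ALDOA, ENO1, PGK1, GAPDH and LDHA. Other settings are given at the end.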

Additional observations from a re-analysis of the deposited data

Results flagged for a closer look

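PFKP in wild type replicate 4 lay at 7.49, above the other 3 wild type arrays, the nearest of which was at 7.25; the gap divided by the range of the group was 0.886, above Dixon's critical value for 4 samples. It was the only such value among 36 groups of 4 arrays (10 members, HIF1A and EPAS1 in 3 genotypes), where chance gives about 1 in 20. PFKP also differed between the knockdowns, with HIF-2α knockdown lower than HIF-1α knockdown by a log2 value of -0.26 (limma adjusted p = 0.0463).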

How the results depend on the processing

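No called fold change of the 10 genes changed sign in up to 22 other settings per gene. These settings count the fit without HIF-2α knockdown replicate 2 in 2 places. It stands as the array apart on the first component and among the fits that left out 1 array. Taking the mean of a gene's probe sets left the values of the 10 genes unchanged, since each has 1 probe set. The call of ENO1 in HIF-1α knockdown was kept in 16 of 22, that of GPI in 11 of 22, that of ALDOA in HIF-2α knockdown in 11 of 22 and that of PFKP between the knockdowns in 10 of 21, which makes 39 lost calls. Fold changes that were not called as deposited gained a call in 8 refits. The number called lower in HIF-1α knockdown, 2 as deposited, was 0 with median-centred arrays, 1 with an intensity trend in eBayes, 0 without the 3 raised-floor arrays, 3 after quantile normalization, 3 with array weights (ALDOA added, limma adjusted p = 0.0436) and 0 to 2 when 1 array was left out. In HIF-2α knockdown it was 1 as deposited, 2 after quantile normalization, 0 with centring, 0 with the trend, 0 with only the groups compared in the fit, 0 without the raised-floor arrays, 2 without HIF-2α knockdown replicate 2 and 0 to 2 when 1 array was left out. Between the knockdowns it was 1 as deposited, 0 with centring, 0 with only genes above the median level (which leaves out PFKP), 2 with array weights, 0 without HIF-2α knockdown replicate 2 and 0 to 2 when 1 array was left out. None of the 10 was called higher in any of these settings, and 4, 5 and 3 had an unadjusted limma p below 0.05 in the 3 comparisons as deposited. ALDOC became the additional call between the knockdowns with array weights, with the replicate block and without wild type replicate 3. With the replicate number as a block, 2, 1 and 2 genes were called lower in the 3 comparisons. The numbers were not taken to pair the arrays, since the correlations of same-numbered deviations ran from -0.17 to 0.64 and 3 of 12 arrays correlated best with their own number. Over all genes, HIF-1α knockdown had 27 lower and 150 higher calls as deposited, 114 and 140 after quantile normalization, 18 and 67 with centring, 96 and 509 with array weights, 81 and 315 with only the groups compared, and 14 and 8 without the raised-floor arrays. HIF-2α knockdown had 57 and 88 as deposited, 263 and 141 after quantile normalization, 38 and 34 with centring, 108 and 178 with the trend, 36 and 28 with only the groups compared, and 23 and 14 without the raised-floor arrays. Between the knockdowns there were 331 and 178, then 546 and 342, 204 and 133 with centring, 617 and 363 with weights, and 140 and 119 without the raised-floor arrays. The causes were not tested. Signals near the array medians, as for PFKP and PFKM, limit what can be read from small differences.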

Other observations

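Among the regulators of phosphofructokinase on the pathway list, which were chosen here after their values were seen, TIGAR, a fructose bisphosphatase that lowers glycolytic flux, lay at 7.79 to 8.10 in HIF-1α knockdown, above all wild type arrays at 7.30 to 7.63 (log2 difference 0.46, SE 0.11, limma adjusted p = 0.0633). PFKFB4, which makes the allosteric activator of phosphofructokinase, lay at 7.57 to 7.71 in HIF-1α knockdown and at 7.75 to 8.16 in wild type (-0.34, SE 0.09, limma adjusted p = 0.0867). PFKFB1, the liver isoform, was at 7.69 to 7.93 in HIF-2α knockdown, above wild type at 7.49 to 7.67 (0.24, SE 0.06, limma adjusted p = 0.0958) and above HIF-1α knockdown at 7.55 to 7.59 (0.24, limma adjusted p = 0.0564). PFKFB3 also lay below all wild type arrays in HIF-1α knockdown (-0.27, limma adjusted p = 0.194). PFKFB2 overlapped there (0.09, limma adjusted p = 0.554). None of these regulators passed, and their signals lie at or not far above the array medians. Of all 18404 genes, every HIF-1α knockdown array lay above every wild type array in 1055 and below in 388. Every HIF-2α knockdown array lay above wild type in 626 and above HIF-1α knockdown in 687. PKM, the pyruvate kinase between enolase and LDHA, was lower by close values in the knockdowns, -0.40 in HIF-1α knockdown (SE 0.09, limma adjusted p = 0.0503) and -0.41 in HIF-2α knockdown (SE 0.09, limma adjusted p = 0.0523). PKM passed in both after quantile normalization (-0.33, limma adjusted p = 0.0214, and -0.43, limma adjusted p = 0.00350) and with array weights (limma adjusted p = 0.0136 and 0.0262). Neither difference passed with centred arrays (limma adjusted p = 0.118 and 0.131) or without the raised-floor arrays (limma adjusted p = 0.151 and 0.155). With the intensity trend neither passed (limma adjusted p = 0.111 and 0.123). HIF-2α knockdown replicate 2, at 11.66, lay above the lowest wild type array at 11.62.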
